A study of Rattus norvegicus with 288 samples.

Results

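The hearts of 24 rats that received no drug were described at 1, 6 and 24 h after dosing, with 8 hearts per time, out of the 288 arrays of the series. They were chosen by their titles, which name the temsirolimus vehicle followed by either oral vehicle, in heart, and the rule that picks them uses titles and no signal. All were male Sprague-Dawley rats aged 7 to 8 weeks with a cannula in the femoral vein, housed in a 12 h light and 12 h dark cycle with free access to food and water. Each was given the temsirolimus vehicle into the vein (TEM_vehicle, 5 mL/kg) and 30 min later an oral vehicle (10 mL/kg), which was F68/PG/PEG400 in 4 rats of each time and sterile water in the other 4. The apex of the heart with both ventricles was taken, and 1 Affymetrix GeneChip rat genome array per heart measured messenger RNA as log2 RMA signal, on which a difference of 1 is a doubling. The clock time of dosing is not given in the sources used here, there was no undosed rat among the hearts analysed, and each heart comes from another animal. Hours after dosing, time of day, time since handling and time since the last meal therefore cannot be told apart. The 1 h and 24 h hearts lie 1 h short of a full day from each other, if dosing hours were the same for all groups.

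Cells of mammalian heart, liver and most other organs carry a molecular clock made of a loop of transcription factors. BMAL1 pairs with CLOCK or NPAS2 and binds E-boxes in front of its targets, the PER and CRY proteins built from these targets then block that pair, and the nuclear receptors REV-ERBα and REV-ERBβ (genes Nr1d1 and Nr1d2) repress Bmal1 through another element, the RORE. Output factors such as DBP and TEF, which activate through D-boxes, and NFIL3, which represses through the same boxes, pass the rhythm on to metabolic genes. In rodent heart the clock is known to time metabolism, ion channel expression and growth signalling.

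The start regions of 5 clock genes that moved in these hearts, picked because they hold an E-box or a RORE core, are printed. They are RefSeq windows of 300 bases on rat build GRCr8, from 250 bases before to 50 after the annotated start, read along the strand of the gene, and capitals mark the E-box (CACGTG) or the RORE core (TAGGTCA), searched on both strands with overlaps allowed. The first 4 hold an E-box and the last holds a RORE core.
Nr1d1 (chr10:84229405-84229704, minus strand): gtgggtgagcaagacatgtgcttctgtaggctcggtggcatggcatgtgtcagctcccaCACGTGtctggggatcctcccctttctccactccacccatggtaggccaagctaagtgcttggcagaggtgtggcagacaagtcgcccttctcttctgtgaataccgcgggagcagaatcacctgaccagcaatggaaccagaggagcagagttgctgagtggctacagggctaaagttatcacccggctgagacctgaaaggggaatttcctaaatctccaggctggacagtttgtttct
Tef (chr7:115206577-115206876, plus strand): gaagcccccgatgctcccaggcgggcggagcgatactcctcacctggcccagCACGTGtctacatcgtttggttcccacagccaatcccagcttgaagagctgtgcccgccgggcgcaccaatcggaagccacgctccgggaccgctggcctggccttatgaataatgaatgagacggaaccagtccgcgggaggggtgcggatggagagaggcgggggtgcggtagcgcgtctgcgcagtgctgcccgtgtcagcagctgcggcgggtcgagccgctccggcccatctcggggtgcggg
Bhlhe40 (chr4:143174200-143174499, plus strand): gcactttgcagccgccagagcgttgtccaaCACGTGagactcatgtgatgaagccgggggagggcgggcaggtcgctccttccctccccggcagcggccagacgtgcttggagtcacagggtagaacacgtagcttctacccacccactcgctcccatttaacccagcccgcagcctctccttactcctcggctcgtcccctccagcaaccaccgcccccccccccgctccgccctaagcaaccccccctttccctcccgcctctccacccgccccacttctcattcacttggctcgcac
Bhlhe41 (chr4:180569306-180569605, minus strand): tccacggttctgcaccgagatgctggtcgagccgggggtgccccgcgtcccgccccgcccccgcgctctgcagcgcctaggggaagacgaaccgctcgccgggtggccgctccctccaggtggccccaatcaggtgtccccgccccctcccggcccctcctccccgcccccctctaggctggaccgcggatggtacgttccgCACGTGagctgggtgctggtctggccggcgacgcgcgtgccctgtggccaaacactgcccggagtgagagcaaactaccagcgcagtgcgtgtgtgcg
Bmal1 (chr1:176766078-176766377, plus strand): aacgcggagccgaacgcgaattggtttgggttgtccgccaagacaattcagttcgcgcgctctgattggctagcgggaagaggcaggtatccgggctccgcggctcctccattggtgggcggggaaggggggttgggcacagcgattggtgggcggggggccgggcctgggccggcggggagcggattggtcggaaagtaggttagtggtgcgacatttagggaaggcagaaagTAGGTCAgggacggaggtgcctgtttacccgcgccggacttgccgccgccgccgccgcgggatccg
Of 17 clock genes on the array 15 had a window, and 4 of these held an E-box, which stood in 6.42% of all 33469 windows. The RORE core stood in 1 of the 15 and in 2.63% of all windows, and the D-box (TTATGTAA) in 1 of the 15, that of Per2, and in 0.893% of all. Nr1d1 has a second window without any of these letters, and Dbp and Per3, which changed more than the genes printed, held none in theirs. An E-box also stood in 5 of 37 other named genes with a window, and the RORE core and the D-box in 0 of them. A gene was counted where any of its windows held the letters, while the share of all is per window. The letters are a description of these windows only, and binding was not tested.

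The hearts differed in ways the groups do not explain, and these come before the results. Per the methods, dosing was spread over 2 days in a row, with 2 rats of every group on each, but which rats belong to which day is not given in the sources used here. The array names place the hearts on 3 array plates, called A, B and C here: plate A held 4 hearts at 6 h and 4 at 1 h, plate B 4 at 24 h and 4 at 1 h, and plate C 4 at 6 h and 4 at 24 h, with both oral vehicles equally in each. Every group of 4 rats was split 2 and 2 over its plates. Within a time, plate and dosing day may coincide and cannot be told apart. With 2 dosing days they cannot match over all times, because every 2 of the 3 plates share a time. A term for plate therefore does not stand in for dosing day. Cardiomyocyte markers lay between 14.29 and 14.45 in all 24 hearts, and none of the 11 passed the test in either comparison with 1 h. Transcripts of liver cells were not at their floor. The mean of 14 hepatocyte markers, among them Alb (albumin), had medians of 6.78, 6.02 and 6.25 at 1, 6 and 24 h, but it was 7.02 to 7.93 in the 4 hearts at 1 h on plate B against 5.80 to 6.55 in the 4 at 1 h on plate A. Alb itself reached 12.90 in rat 1M7 at 1 h and was 5.14 in rat 1M1 at the same time. At 24 h the heart of rat 1M5 (7.57) lay above the other 7 (5.96 to 6.41), and it also had the highest 3′ over 5′ signal ratio of the Actb control probe sets, 3.78 against 1.45 to 2.83 in the other 23. None of the 14 hepatocyte markers passed the test at 6 h or 24 h against 1 h. To keep liver transcripts apart, 534 of the 14218 genes were set aside, because over 72 hearts of drug-treated rats they followed the hepatocyte markers (r of at least 0.5) and stood at least 1 log2 unit higher in liver than in heart. Without 1 drug heart (rat 6M68, hepatocyte level 13.75) the rule set aside 354 genes, all among the 534, and the genes called and not set aside numbered 127 at 6 h and 78 at 24 h. Of the other 12 cell type lists, the endothelial list had 1 member that rose at 6 h (Egfl7), and no other marker passed either test. In whole tissue, fewer cells of a type and less RNA per cell cannot be told apart.

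**Figure D1:**
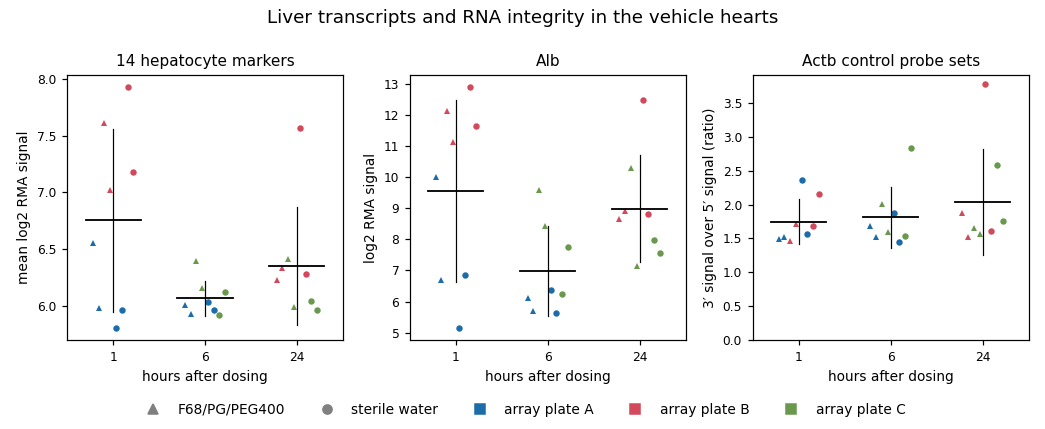
Mean log2 signal of 14 hepatocyte markers, log2 signal of Alb, and the ratio of 3′ to 5′ signal of the Actb control probe sets in each of the 24 vehicle hearts by hours after dosing. Points are hearts, shaped by oral vehicle and coloured by array plate, bars are the mean ± SD of 8 hearts. The 4 hearts at 1 h on plate B (7.02 to 7.93) and rat 1M5 at 24 h (7.57) stand above the rest.

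At 6 h against 1 h, 130 of 14218 genes passed the test (0.914%, limma with oral vehicle as a term, Benjamini-Hochberg adjusted p under 0.05 over all genes). Leaving aside 3 that followed liver transcripts, Ephx1, Egfr and Errfi1, 127 remained, 40 higher and 87 lower at 6 h. Rises made up 0.288% and falls 0.626% of all genes before this step. Genes of the clock held both ends of the list: Dbp, Per3, Bhlhe41, Nr1d1, Nr1d2 and Tef were the 6 largest rises among genes whose groups of 8 did not overlap, and Bmal1 was the largest fall. In 41 of the 127 genes no heart at 6 h reached into the range of the hearts at 1 h, and 0.345% of all genes were parted in this way. Without rat 2M15 the count of 127 was 82, and no other omission of a single rat moved it by over 1.5 times. The median change over all genes was 0.00 on the log2 scale.

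The activators of the loop fell together at 6 h: all 3 measured passed the test, with a median change of -1.14. Bmal1, the partner without which the loop stops in mice, had lowest, median and highest signals of 6.38, 7.10 and 8.29 at 6 h, against 8.56, 8.78 and 9.22 at 1 h. No heart overlapped, and Bmal1 was 3.23-fold lower at 6 h (log2 change -1.69 ± 0.18 SE, limma adjusted p = 8.9e-07). It also varied most at 6 h, where the SD over 8 hearts was 0.58, against 0.23 at 1 h, and the 4 hearts of sterile water rats held the 4 highest values. Npas2, which can stand in for CLOCK, had 7.13, 7.78 and 8.02 at 6 h against 8.55, 8.85 and 9.08 at 1 h, again without overlap, a change of -1.14 ± 0.11 (adjusted p = 2.41e-07). Clock moved least, with a median of 8.79 at 6 h against 9.09 at 1 h and overlapping groups (-0.29 ± 0.07, adjusted p = 0.0262). The other probe set for Clock of like signal gave -0.43 ± 0.08. Without the 4 hearts at 1 h on plate B the change of Clock was -0.28 with an adjusted p of 0.2, so that call rests on all 8 hearts.

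Of the 9 measured repressors 6 rose, 1 fell and 2 did not pass. Per3, a member of the period family, had 8.77, 9.19 and 9.76 at 6 h against 7.26, 7.41 and 7.84 at 1 h and was 3.48-fold higher (1.80 ± 0.13, adjusted p = 1.09e-09). The REV-ERB genes rose by similar amounts: Nr1d1 had 8.95, 9.31 and 9.36 at 6 h against 7.47, 7.97 and 8.27 at 1 h, and Nr1d2 had 10.15, 10.54 and 10.73 against 9.01, 9.21 and 9.69 (1.30 ± 0.10 and 1.22 ± 0.12, adjusted p = 8.94e-09 and 2.41e-07). Their 8 hearts at 6 h all lay above all 8 at 1 h. Bhlhe41 and Bhlhe40 encode DEC2 and DEC1, which compete with BMAL1 for E-boxes. Bhlhe41 rose 2.95-fold (1.56 ± 0.12, adjusted p = 3.92e-09) and Bhlhe40 1.65-fold (0.72 ± 0.12, adjusted p = 0.00109), without overlap in either.

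The cryptochromes, the strongest repressors of the BMAL1 pair, were called in opposite directions at 6 h. Cry1 had 7.78, 8.00 and 8.23 at 6 h against 8.85, 9.04 and 9.24 at 1 h and was 2.04-fold lower without overlap (-1.03 ± 0.08, adjusted p = 2.04e-09). Cry2 had a median of 8.69 at 6 h against 8.38 at 1 h, with overlap (0.31 ± 0.07, adjusted p = 0.0332), and its adjusted p was 0.0643 with array plate as a block and 0.238 without the 4 hearts at 1 h on plate B. The other probe set of Cry2, of lower signal, gave 0.11 ± 0.10. Per1 and Per2 did not pass at 6 h. Per1 had a median of 8.80 at 6 h against 9.10 at 1 h, with values spread over about the same range in both groups (-0.16 ± 0.13, adjusted p = 0.755). For Per2 the 2 probe sets disagreed. The one used here, with the slightly higher mean signal, gave -0.07 ± 0.05 (adjusted p = 0.723), the other gave 0.58 ± 0.14, and their mean gave 0.25 (adjusted p = 0.16).

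Of 5 output factors, Dbp and Tef rose, Nfil3 fell, and Hlf and Rora did not pass. Dbp, an albumin promoter binding factor that is among the strongest cycling transcripts of many tissues, had 9.38, 9.95 and 10.42 at 6 h against 7.28, 7.53 and 7.86 at 1 h. That was the largest change of any gene not set aside whose groups were parted, 5.23-fold (2.39 ± 0.11, adjusted p = 6.32e-14). Tef, a relative of Dbp, rose 1.92-fold (0.94 ± 0.09, adjusted p = 5.27e-07). Nfil3, the repressor that shares the D-box, had 7.36, 7.58 and 7.71 at 6 h against 8.29, 8.51 and 9.01 at 1 h, a fall in the opposite direction to Dbp and Tef (-1.0 ± 0.09, adjusted p = 3.47e-08). Hlf, the third relative, had medians of 6.93 at 6 h and 6.83 at 1 h (0.08 ± 0.11, adjusted p = 0.895), and Rora, which activates through the RORE, had 6.46 and 6.15 (0.16 ± 0.11, adjusted p = 0.691).

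**Figure D2:**
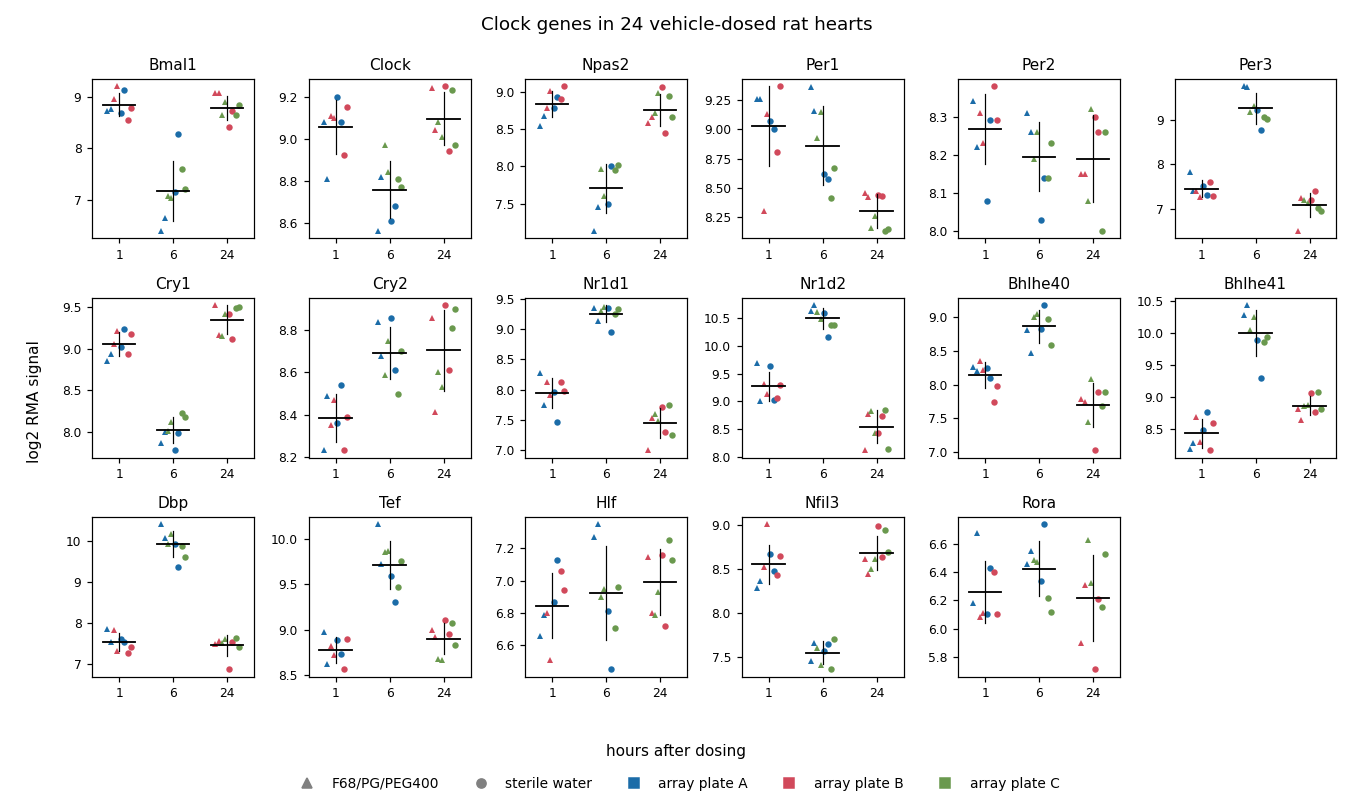
Log2 RMA signal of the 17 measured clock genes in each of 24 vehicle hearts at 1, 6 and 24 h after dosing. Points are hearts, shaped by oral vehicle and coloured by array plate, bars are the mean ± SD of 8 hearts. Dbp, Per3, Bhlhe41, Nr1d1, Nr1d2, Bhlhe40 and Tef at 6 h lie above, and Bmal1, Npas2, Cry1 and Nfil3 below, all hearts at the other times.

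With array plate as a block, 11 of the 13 clock calls at 6 h had an adjusted p of 0.0216 or less. Clock had 0.0436 and Cry2 had 0.0643. Within plate A, 4 hearts against 4, the change was 2.33 ± 0.15 for Dbp and 1.85 ± 0.18 for Per3. It was -1.72 ± 0.26 for Bmal1 and -1.10 ± 0.10 for Cry1. These SE rest on a spread shared by the hearts of all plates, not on plate A alone. Without the 4 hearts at 1 h on plate B the changes of Dbp, Nr1d1 and Bmal1 were 2.30, 1.39 and -1.66.

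Known clock-driven genes of the heart mostly did not pass at 6 h: of 14 measured, 2 rose, 0 fell and 12 were not called, with a median change of -0.06. With plate as a block 1 rose and 2 fell. Tcap, which encodes telethonin, a small protein that caps titin at the Z-disc of the sarcomere, was the clearest, with 13.66, 13.96 and 14.06 at 6 h against 12.93, 13.13 and 13.50 at 1 h (0.76 ± 0.07, adjusted p = 6.97e-08). At 24 h it was back in the range of the hearts at 1 h, with a median of 13.12. Usp2, a ubiquitin protease, had medians of 10.14 at 6 h and 9.47 at 1 h with overlap (0.55 ± 0.14, adjusted p = 0.0445), a call that was lost with plate as a block (adjusted p = 0.0683) and without the 4 hearts at 1 h on plate B (0.131).

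Outside the clock, the larger changes at 6 h were falls. Ccn2, a matrix-associated growth factor target of YAP and TGF-β, had 9.89, 10.38 and 10.66 at 6 h, all below the 8 hearts at 1 h with their median of 11.53 and highest value of 12.07. At 24 h it had 10.02, 10.66 and 11.49. It was 2.41-fold lower at 6 h (-1.27 ± 0.16, adjusted p = 2.69e-05). Otud1, a deubiquitinase, was 2.14-fold lower (-1.10 ± 0.15, adjusted p = 9.12e-05), with 9.55 to 10.05 at 6 h against a wider range of 10.11 to 11.59 at 1 h. G0s2, an inhibitor of the lipase ATGL that holds back fat breakdown, had 9.88, 10.12 and 10.68 at 6 h against 10.69, 10.97 and 11.44 at 1 h (-0.85 ± 0.13, adjusted p = 0.000447). Gadd45g, Spon2 and Trim2 completed the 10 largest parted falls, at -0.82 ± 0.12, -0.65 ± 0.10 and -0.63 ± 0.07. Among rises, Hpdl (0.50 ± 0.10) and Tmem86a (0.48 ± 0.07) followed the clock genes and Tcap. The adjusted p of Hpdl was 0.00821, 0.0942 with plate as a block and 0.0879 without the 4 hearts at 1 h on plate B.

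Stress and hormone responsive lists changed in part. Of 15 glucocorticoid responsive genes 1 rose at 6 h and 3 fell. Mt2A, a metal-binding metallothionein, rose (0.45 ± 0.07, adjusted p = 0.000542) with 8.43 to 8.95 at 6 h against 8.14 to 8.29 at 1 h. Cebpb and Tsc22d3, a transcription factor of acute responses and the glucocorticoid-induced leucine zipper, fell by 0.76 ± 0.15 and 0.39 ± 0.07 (adjusted p = 0.00821 and 0.00455). Errfi1, a brake on EGF receptor signalling, also fell (-0.57 ± 0.10), but it is 1 of the genes set aside. The list median was -0.15. Of 21 immediate early genes only Atf3 passed, with 5.80, 6.27 and 6.55 at 6 h against 6.41, 7.71 and 9.15 at 1 h (-1.47 ± 0.24, adjusted p = 0.000856). Its groups overlapped, and the spread at 1 h was an SD of 0.89. Without the 4 hearts at 1 h on plate B the change of Atf3 was -0.95 (adjusted p = 0.0249).

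Some chaperone genes fell at 6 h, and most did not pass. Of 15 heat shock genes 3 fell: Dnajb4 by 0.39 ± 0.07, Hspa1a by 0.47 ± 0.11 and Dnaja1 by 0.30 ± 0.07 (adjusted p = 0.00273, 0.035 and 0.0459). Hspa1a had an adjusted p of 0.0781 with plate as a block and 0.00551 without the 4 hearts at 1 h on plate B. Of 16 genes of the unfolded protein response, which raises chaperones of the endoplasmic reticulum, 3 fell, and 8 fell with plate as a block. Creld2 had a change of -0.44 ± 0.08, Hsp90b1 of -0.32 ± 0.07 and Hspa5 of -0.28 ± 0.07 (adjusted p = 0.00378, 0.0193 and 0.0483). Hspa5 had 0.129 without the 4 hearts at 1 h on plate B. Cirbp, the RNA-binding protein whose messenger rises as body temperature drops, rose by 0.35 ± 0.08 without overlap (adjusted p = 0.0157), 0.0653 with plate as a block and 0.165 without the 4 hearts at 1 h on plate B, and its other 2 probe sets gave 0.15 ± 0.12 and 0.12 ± 0.17.

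Few members of 3 further lists fell at 6 h. Rcan1 and Ccn2 did so among 9 genes of cardiac load, and Rcan1, a feedback inhibitor of calcineurin, had a median of 11.26 at 6 h against 12.15 at 1 h (-0.81 ± 0.16, adjusted p = 0.00797, 0.0796 with plate as a block and 0.156 without the 4 hearts at 1 h on plate B). Kcna5, the channel of an ultra-rapid potassium current, was the only one of 21 ion channel and calcium handling genes (-0.67 ± 0.15, adjusted p = 0.0231). Irs2, an insulin receptor substrate that FOXO factors induce, was the only one of 15 in its list (-0.73 ± 0.13, adjusted p = 0.00386). No member passed at 6 h among 25 genes of fatty acid use, 23 of glucose and glycogen, 17 of inflammation, 13 of the interferon response, 12 of cholesterol synthesis, 18 of proliferation, 17 of ribosome biogenesis or 17 of collagen and matrix. Their medians ran from -0.08 to 0.18. With plate as a block 2 genes of cholesterol synthesis fell and 1 of inflammation rose, and the ion channel and FOXO lists had 2 falls each.

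At 24 h against 1 h, with the same 8 hearts at 1 h as reference, 80 genes passed (0.563%), 75 of them not set aside, of which 28 rose and 47 fell (before setting aside, 0.211% and 0.352% of all genes). In 22 of the 75 the groups did not overlap (0.246% of all genes). The count was 29 with plate as a block, 44 without rat 2M13, 45 without rat 1M12 and 43 without rat 2M23. Most clock genes lay near their values at 1 h. All 3 activators had changes between -0.08 and 0.04 and did not pass, and Bmal1 had 8.41, 8.79 and 9.08 at 24 h. None of the 5 output factors passed. Among the repressors Nr1d2, Per1 and Nr1d1 fell, Cry2 rose and 5 did not pass.

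Nr1d2 had 8.12, 8.59 and 8.85 at 24 h against 9.01, 9.21 and 9.69 at 1 h and did not overlap (-0.73 ± 0.12, adjusted p = 0.00187, and 0.0326 with plate as a block). Its other 2 probe sets gave -0.88 and -0.64. Nr1d1 had 7.00, 7.51 and 7.74 against 7.47, 7.97 and 8.27 (-0.50 ± 0.10, adjusted p = 0.023, 0.0366 with plate as a block and 0.193 without the 4 hearts at 1 h on plate B). Per1, which glucocorticoids and other acute signals induce directly as well as the clock, had 8.13, 8.34 and 8.46 at 24 h against 8.30, 9.10 and 9.37 at 1 h. Apart from 1 heart at 1 h these groups were parted (-0.72 ± 0.13, adjusted p = 0.00533, 0.118 with plate as a block and 0.000165 without the 4 hearts at 1 h on plate B). Cry2 rose by 0.32 ± 0.07 (adjusted p = 0.0384), with adjusted p of 0.0851 with plate as a block and 0.172 without the 4 hearts at 1 h on plate B. The other probe set of Cry2 gave 0.01 ± 0.10. Cry1 and Bhlhe41 were at 0.29 ± 0.08 and 0.43 ± 0.12 with adjusted p of 0.0732 and 0.101.

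The largest parted falls at 24 h were those of Kcna5, Tent5b, Tob2 and Nr1d2. Kcna5 had 5.84, 6.25 and 6.50 at 24 h against 6.66, 7.49 and 8.03 at 1 h, with 6.33, 6.74 and 6.97 at 6 h. It was 2.23-fold lower at 24 h without overlap (-1.16 ± 0.15, adjusted p = 0.000223). Tent5b, a poly(A) polymerase, had 7.14 to 7.49 at 24 h against 7.68 to 9.11 at 1 h (-1.07 ± 0.16, adjusted p = 0.000669), and its second probe set gave -1.33. Tob2, an antiproliferative factor tied to messenger RNA deadenylation, and Ppp1r15a, which encodes GADD34, the subunit that directs a phosphatase to eIF2α, fell by 0.81 ± 0.10 and 0.56 ± 0.07 (adjusted p = 0.000223 each). The J-domain co-chaperone Dnajb4 fell by 0.50 ± 0.07 (adjusted p = 0.000458), the only one of 15 heat shock genes. All 5 lay without overlap and had adjusted p of 0.00669 or less with plate as a block.

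Further parted falls at 24 h were Larp6 (-0.52 ± 0.08), Zfp36 (-0.36 ± 0.08), Map3k6 (-0.34 ± 0.05) and Hspb3 (-0.32 ± 0.07). Larp6 binds collagen messengers and Zfp36 encodes tristetraprolin, which marks AU-rich messengers for decay. With plate as a block Zfp36 and Hspb3 had adjusted p of 0.448 and 0.0851, and without the 4 hearts at 1 h on plate B 0.0691 and 0.0812. Zfp36 and Atf3 were the only 2 of 21 immediate early genes called, and Atf3 was at -1.27 ± 0.24 (adjusted p = 0.00866). Atf3 was at -1.57 with plate as a block (adjusted p = 0.00315), and without the 4 hearts at 1 h on plate B at -0.75 (adjusted p = 0.102).

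Genes of other lists that fell at 24 h did so with overlapping groups. Ccn2 and Rcan1 were 1.92-fold and 1.69-fold lower (adjusted p = 0.00314 and 0.023), and did not pass without the 4 hearts at 1 h on plate B (0.0741 and 0.174). Klf15, a glucocorticoid-induced regulator of cardiac metabolism, Cebpb and Errfi1 were the 3 called of 15 glucocorticoid responsive genes, at -0.55 ± 0.12, -0.72 ± 0.15 and -0.47 ± 0.10. None of these 3 passed with plate as a block (adjusted p = 0.33, 0.158 and 0.0851). Without the 4 hearts at 1 h on plate B the same 3 were at -0.84, -0.97 and -0.63 and passed (adjusted p = 1.17e-05, 1.87e-06 and 0.000931). Trim63, the muscle ubiquitin ligase MuRF1, fell by 0.42 ± 0.08 (adjusted p = 0.0121), the only one of 15 FOXO and atrophy genes. Insig1, which holds back sterol synthesis, fell by 0.30 ± 0.06 and is set aside. With plate as a block Trim63, Rcan1 and Insig1 had adjusted p of 0.117, 0.201 and 0.121. Without the 4 hearts at 1 h on plate B Trim63 and Insig1 passed (0.00383 and 0.0015). No member passed at 24 h among the lists for the unfolded protein response, cold-inducible RNA binding, clock-driven heart genes, fatty acid use, glucose and glycogen, inflammation, interferon, proliferation, ribosome biogenesis or collagen and matrix.

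Rises at 24 h were smaller. The 10 largest parted ones were Clec14a, Sox7, Qpct, Smad9, C2h3orf80, Mipol1, Eif2ak2, Pacsin2, Mdfic and Ubqln2, between 0.58 ± 0.12 and 0.21 ± 0.05. Clec14a, a lectin of endothelial cells, had 7.51, 7.71 and 8.04 at 24 h against 6.63, 7.21 and 7.44 at 1 h (adjusted p = 0.0181), and Sox7, an endothelial transcription factor, had 10.18, 10.24 and 10.40 against 9.28, 9.89 and 10.04 (0.43 ± 0.08, adjusted p = 0.00866). The mean of 8 endothelial markers had medians of 10.53 at 24 h and 10.45 at 1 h, with a range of 10.41 to 10.71 against 10.23 to 10.58, and its part in these rises was not tested. Of the 10 rises, only Smad9, a transducer of BMP signals, had an adjusted p under the threshold with plate as a block (0.46, adjusted p = 0.00315). Without the 4 hearts at 1 h on plate B, Clec14a (0.78, adjusted p = 0.00419), Sox7 (0.55, 0.00203), and also C2h3orf80, Mipol1, Pacsin2 and Mdfic passed, with adjusted p of 0.0334, 0.0249, 0.0193 and 0.0305. Smad9, Qpct, Eif2ak2 and Ubqln2 did not, with adjusted p of 0.111, 0.109, 0.107 and 0.113. Second probe sets of Pacsin2, Smad9, Mdfic and Ubqln2 gave 0.06, -0.09, 0.14 and -0.08. Qpct, Mipol1 and C2h3orf80 had mean signals of 5.24, 5.90 and 5.94 over the 24 hearts. These lie below the bound of 6 used here for low signal, so their rises are less certain.

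**Figure D3:**
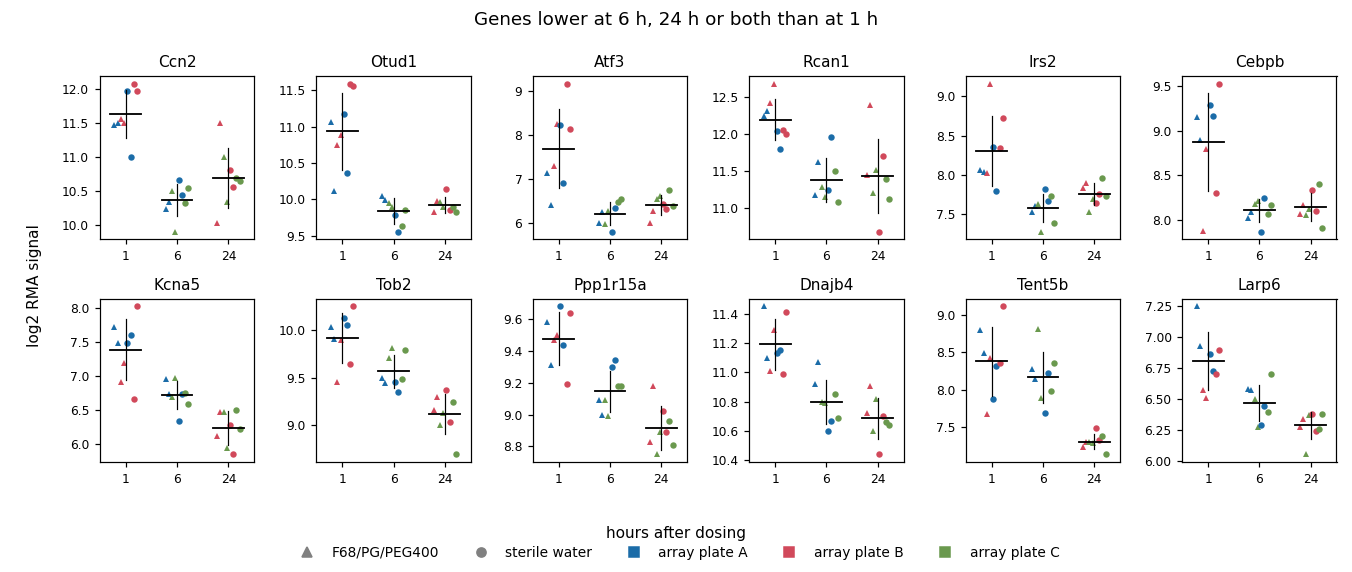
Log2 RMA signal of 12 genes that were lower at 6 h, at 24 h or at both than at 1 h, in each of 24 vehicle hearts. Points are hearts, shaped by oral vehicle and coloured by array plate, bars are the mean ± SD of 8 hearts. Ccn2, Otud1, Atf3, Rcan1, Irs2 and Cebpb are near the same level at 6 and 24 h, while Kcna5, Tob2 and Ppp1r15a are lowest at 24 h and Tent5b is low only at 24 h.

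At 24 h against 6 h, 242 genes passed (1.7%), 236 of them not set aside, 160 higher and 76 lower at 24 h (before setting aside, 1.15% and 0.549% of all genes). Groups did not overlap in 81 of the 236, and in 0.612% of all genes. The count was 144 with plate as a block, 150 without rat 1M3 and 153 without rat 2M15. All 3 activators rose, with Bmal1 at 1.63 ± 0.18 (adjusted p = 1.47e-06), while Clock, at 0.34 ± 0.07 (adjusted p = 0.00583), had 0.0611 with plate as a block. Among the 9 repressors Cry1 rose by 1.32 ± 0.08 (adjusted p = 7.98e-12) while Per1, Per3, Nr1d1, Nr1d2, Bhlhe40 and Bhlhe41 fell. The fall of Per1 (-0.56 ± 0.13, adjusted p = 0.0217) was lost with plate as a block (0.0988). Per3 fell by 2.18 ± 0.13 and Nr1d1 by 1.80 ± 0.10 (adjusted p = 7.98e-12 each). Dbp fell by 2.48 ± 0.11 (adjusted p = 2.58e-14). G0s2, lowest at 6 h, had 11.31, 11.68 and 12.03 at 24 h and rose by 1.51 ± 0.13 (adjusted p = 2.52e-08). Its medians were thus lowest at 6 h and highest at 24 h, with overlap only between 24 h and 1 h. The step of G0s2 between 24 h and 1 h was 0.66 ± 0.13 (adjusted p = 0.0121, and 0.22 with plate as a block).

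The oral vehicle made no called difference to either change: 0 of 14218 genes passed for the 6 h or the 24 h change in F68/PG/PEG400 minus that in sterile water (limma, 773 and 260 genes at unadjusted p under 0.05). For Dbp the 6 h change was larger by 0.27, for Per3 by 0.44 and for Bhlhe41 by 0.65 with F68/PG/PEG400, with adjusted p of 0.965, 0.91 and 0.876. For Bmal1 the difference was -0.91 ± 0.28 (adjusted p = 0.876), with mean signals at 6 h of 6.78 with F68/PG/PEG400 and 7.56 with sterile water. For Hlf and Per1 it was 0.70 ± 0.18 and 0.66 ± 0.22 (adjusted p = 0.876 each). Mean Hlf went from 7.00 at 1 h to 6.73 at 6 h with sterile water, and from 6.69 to 7.12 with F68/PG/PEG400. Mean Per1 went from 9.07 to 8.57 with sterile water, and from 8.99 to 9.15 with F68/PG/PEG400. The pooled 6 h changes of these genes thus average moves in opposite directions. These differences did not pass with 4 hearts per oral vehicle and time, which does not show that the vehicles acted alike.

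The 72 hearts of rats given temsirolimus, sunitinib or sorafenib alone or combined share no animal with the vehicle hearts and were sampled at the same 3 times, so they give a repeat in other animals, with the drugs present. Of the 127 genes called at 6 h, 119 changed in the same direction in the drug hearts and 98 also passed there. The background was 54.6% of all genes with the same sign and 13.6% called in drug hearts. Of the 75 genes called at 24 h, 74 had the same direction and 58 passed, on a background of 58.5% and 7.77%. At 6 h Dbp changed by 2.39 ± 0.11 in vehicle hearts and 2.69 ± 0.10 in drug hearts, Bmal1 by -1.69 ± 0.18 in vehicle hearts and -2.11 ± 0.08 in drug hearts, and Nr1d1 by 1.30 ± 0.10 in vehicle hearts and 0.94 ± 0.08 in drug hearts. Kcna5 at 24 h changed by -1.16 ± 0.15 in vehicle hearts and -1.01 ± 0.11 in drug hearts. Hlf and Rora, not called at 6 h in vehicle hearts, rose in drug hearts by 0.48 ± 0.08 and 0.37 ± 0.08 (limma adjusted p = 3.28e-06 and 0.0013). Other genes described above did not pass in drug hearts. At 6 h these included Kcna5 (-0.19 ± 0.11), Tsc22d3 (-0.05 ± 0.06), Dnajb4 (-0.08 ± 0.06) and Hspa1a (-0.06 ± 0.08). At 24 h they included Ccn2 (-0.17 ± 0.09), Rcan1 (-0.22 ± 0.08), Qpct (0.04 ± 0.08) and Eif2ak2 (0.07 ± 0.06). Smad9 (0.17 ± 0.07) and Pacsin2 (0.12 ± 0.06) did not pass there at 24 h either. One drug heart at 1 h (rat 6M68) had a hepatocyte level of 13.75, and 19 others were above 8. Without it the counts were 119 and 101 at 6 h and 74 and 57 at 24 h.

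**Figure D4:**
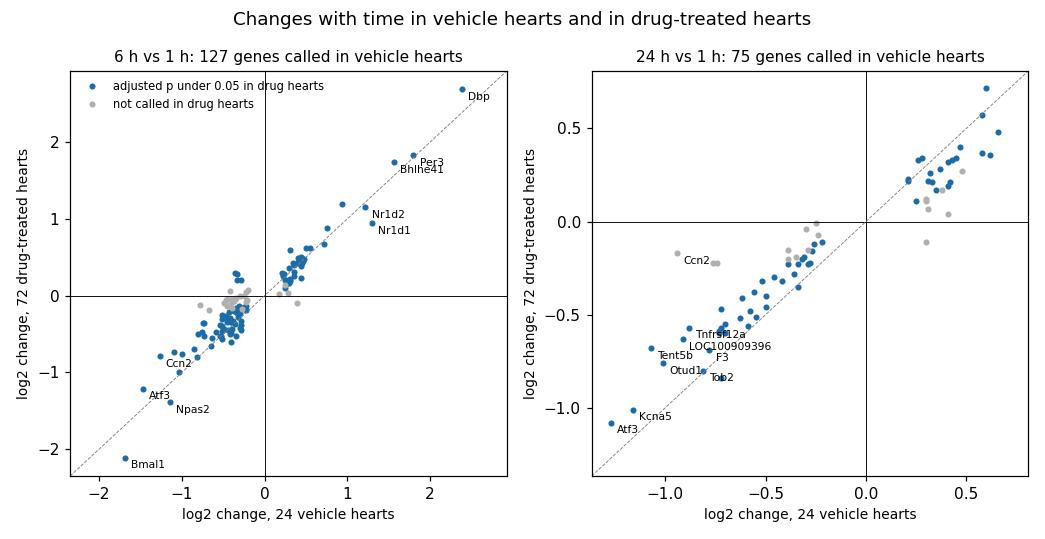
Log2 change of the genes called in vehicle hearts, in 24 vehicle hearts (horizontal) and in 72 drug-treated hearts (vertical), at 6 h against 1 h for 127 genes and at 24 h against 1 h for 75 genes. Each point is a gene, blue where it also passed in the drug hearts, and the dashed line marks equal change. Points in the lower left and upper right moved the same way in both sets, 119 of 127 and 74 of 75.

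When the changes themselves were compared, vehicle against drug hearts, 6 genes differed at 6 h (0.0422%) and 0 at 24 h (1120 at unadjusted p under 0.05), and no clock gene was among them. The 6 were Fam117b, Fam13c, Adgrl4, Acer2, Bbc3 and RGD1305537, all with adjusted p between 0.0427 and 0.0487. Fam117b fell in vehicle hearts (-0.36 ± 0.08) and rose in drug hearts (0.30 ± 0.07). Fmo1, Acer2 and RGD1305537 were also called in opposite directions. With each vehicle rat left out in turn the count ran from 0 to 26, and it was 21 without the heart of rat 6M68.

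Heart and liver of the same rats were set side by side, since every rat gave both. The 6 h change differed between heart and liver in 347 genes (2.44%), among them 11 of the 17 clock genes. Of the 347, 25 are genes set aside as following liver transcripts, which leaves 322. The count of 347 was 216 without rat 1M2, 198 without 1M8, 220 without 2M14 and 228 without 1M3. Bmal1, Npas2 and Nfil3 fell further in heart, by differences of -1.08 ± 0.15, -0.75 ± 0.12 and -0.87 ± 0.15 on the log2 scale (adjusted p = 0.000162, 0.00066 and 0.00171). In liver their changes were -0.61 ± 0.12, -0.39 ± 0.08 and -0.13 ± 0.13. Dbp, Tef and Bhlhe41 rose further in heart, and Bhlhe41 changed by 0.18 ± 0.07 in liver (difference 1.38 ± 0.15, adjusted p = 5.27e-06). In liver, however, Bhlhe41 had mean signals of only 5.09 at 1 h and 5.27 at 6 h. These lie below the bound of 6 used here for low signal, so its liver change says little.

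The REV-ERB genes and Cry1 went the other way, with the larger change in liver. Nr1d1 changed by 1.30 ± 0.10 in heart and 2.58 ± 0.20 in liver, and Nr1d2 by 1.22 ± 0.12 and 1.95 ± 0.13 (differences -1.27 ± 0.20 and -0.73 ± 0.11, adjusted p = 0.000555 and 0.000605). Cry1 changed by -1.03 ± 0.08 in heart and -1.47 ± 0.11 in liver (difference 0.44 ± 0.11, adjusted p = 0.0257). The remaining 2, Cry2 and Per2, had differences of 0.43 ± 0.10 and 0.19 ± 0.05 (adjusted p = 0.0157 and 0.0376). Cry2 changed by 0.31 ± 0.07 in heart and -0.12 ± 0.09 in liver.

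Beyond the clock, Usp2 changed by 0.55 ± 0.14 in heart and -1.59 ± 0.20 in liver (difference 2.15 ± 0.21, adjusted p = 8.81e-07). Tcap rose in heart and had -0.01 ± 0.05 in liver, where its mean signal was 5.99 at 1 h and 5.98 at 6 h. At 24 h the organs differed in 71 genes (0.499%), 4 of them set aside. The smallest p was that of Kcna5 (difference -1.12 ± 0.16), and Otud1 had a larger difference (-1.22 ± 0.19, adjusted p = 0.0025 each). Kcna5 had liver means of 5.13 at 1 h and 5.10 at 24 h. Tcap and Kcna5 were thus below a mean signal of 6 in liver, and their comparison between organs mostly restates the change in heart. Cry1 was the only clock gene that differed at 24 h (difference -0.50 ± 0.11, adjusted p = 0.0275). Its change at 24 h was 0.29 ± 0.08 in heart and 0.79 ± 0.11 in liver. With plate of the heart array as a block 19 genes differed at 24 h, and without rat 2M13 44 did.

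**Figure D5:**
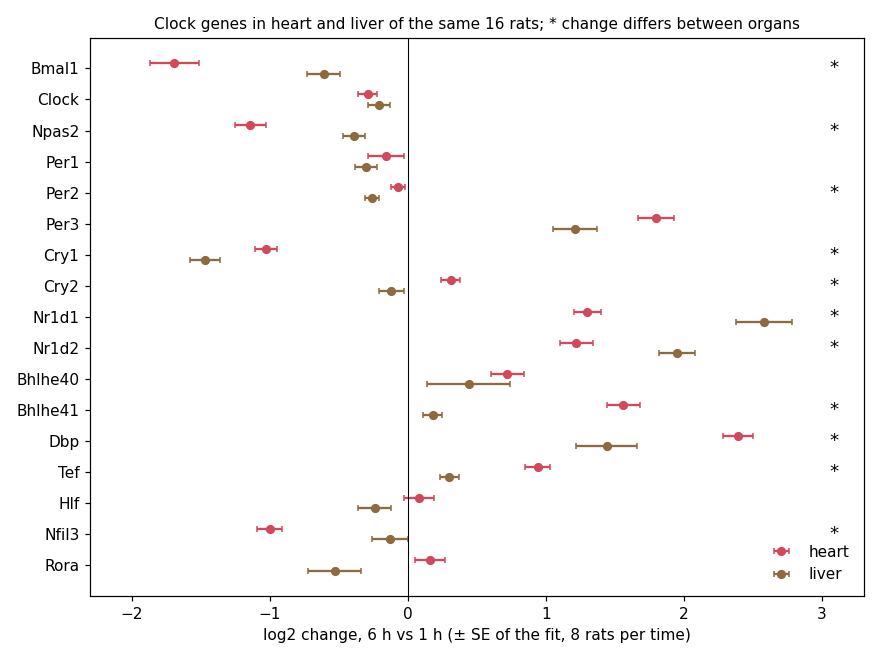
Log2 change at 6 h against 1 h of the 17 measured clock genes in heart and in liver of the same 16 vehicle rats, with the SE of the fit. Stars mark the 11 genes whose change differed between organs at an adjusted p under 0.05. Bmal1, Npas2, Nfil3, Dbp, Tef and Bhlhe41 moved further in heart, Nr1d1, Nr1d2 and Cry1 further in liver. Bhlhe41 had low signal in liver.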

How the data were processed

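The authors processed the scanned arrays by RMA and deposited the result as log2 signals per probe set, which were used as deposited. The version of RMA is not given in the sources used here. Of 31099 probe sets 20832 had 1 gene symbol in the platform annotation, 436 had several and 9831 were not listed. For each of 14218 genes the probe set with the highest mean over the 24 vehicle hearts was used. Groups follow the sample titles. R 4.3.3 and limma 3.58.1 were used. Changes with time were fitted over the 24 vehicle hearts with time and oral vehicle as terms, differences between oral vehicles with 6 group means, heart against liver on the difference within each rat, and vehicle against drug hearts with 24 group means over 96 hearts. The drug hearts alone were fitted with a mean for each treatment and time. P-values were adjusted over all genes by Benjamini-Hochberg, and values after ± are standard errors of the fit unless named SD.

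The hearts were picked by their titles. The choice to describe them and the gene lists were made with earlier results of these data known. Named genes were the 10 largest rises and 10 largest falls at 6 h and at 24 h among genes called, not set aside and without overlap of the 8 hearts, all measured clock genes, and up to 4 called members of every other list (378 distinct genes measured in 20 pathway and 14 cell type lists). Differences between groups also named the 6 genes with the smallest p. The method was tested on simulated data. Precision is set by 8 rats per time, since array signals carry no depth. The p-values set each difference against the spread between rats, pooled over the groups of a fit and moderated over genes by limma. That spread can also hold differences between plates and dosing days. For comparison within 1 plate, the spread was that of the hearts on all plates. Promoter windows are from RefSeq (GRCr8). Alternatives were a mean signal of at least 6, renewed quantile normalization, array plate as a block, comparison within 1 plate, each oral vehicle alone, no oral vehicle term, hepatocyte level as a covariate, a lower r of 0.3 for setting genes aside, all 96 hearts, the mean of a gene's probe sets, independent arrays for heart and liver, and omission of each rat. Omission of the 4 hearts at 1 h on plate B and of the drug heart of rat 6M68 were chosen after seeing the data.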

Additional observations from a re-analysis of the deposited data

Results flagged for a closer look

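A single heart stood apart from the other 7 of its time in 20 of 228 groups of values, where chance gives about 1 in 20 for independent groups. These groups share rats, and many genes were picked for parted groups, so that rate is only a rough guide. Rat 1M5 at 24 h had the lowest Dbp (6.87, the others 7.43 to 7.63) and the highest mean of hepatocyte markers (7.57, the others 5.96 to 6.41). Rat 2M17 at 24 h was high in Trim2 (9.66, the others up to 9.45) and Tsc22d3 (11.05, the others up to 10.76). Rat 2M23 at 24 h was high in Qpct (5.93) and in atrial myocyte markers (10.25, the others 7.98 to 8.91) and low in Larp6 (6.05). At 1 h rat 1M7 was low in Hsp90b1 (11.56) and Trim63 (10.33), rat 2M13 in Sox7 (9.28) and endothelial markers (10.23), and rat 2M20 in Smad9 (7.39) and macrophage markers (8.54). At 6 h rat 1M3 was low in Dnaja1 (10.58) and rat 2M21 in atrial myocyte markers (7.46, the others 8.51 to 9.14) and B cell markers (6.15). Rat 1M10 at 6 h was low in cardiomyocyte markers (14.29) and high in mesothelial (7.08) and Schwann and nerve markers (8.22), and rat 1M12 at 24 h was high in neutrophil markers (7.23).

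The 6 h change differed between heart and liver of the same rats in 347 genes and the 24 h change in 71, genes set aside included. Among clock genes the heart minus liver difference of the 6 h change was positive for Bhlhe41 (1.38, low signal in liver), Dbp (0.94), Tef (0.63), Cry1 (0.44), Cry2 (0.43) and Per2 (0.19). It was negative for Nr1d1 (-1.27), Bmal1 (-1.08), Nfil3 (-0.87), Npas2 (-0.75) and Nr1d2 (-0.73), and at 24 h for Cry1 (-0.50). Between vehicle and drug hearts 6 genes differed in their 6 h change.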

How the results depend on the processing

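Of 69 called changes of named genes none reversed under any alternative, while 25 lost their call with array plate as a block, 46 within 1 plate, 51 in sterile water rats alone, 49 in F68/PG/PEG400 rats alone 18 without the 4 hearts at 1 h on plate B, 17 with all 96 hearts in the fit, 10 with the mean of a gene's probe sets and 21 when the rat whose omission gave the largest adjusted p was left out. Renewed quantile normalization, no oral vehicle term and the hepatocyte covariate cost 2, 3 and 5 calls. The counts at 6 h against 1 h, 24 h against 1 h and 24 h against 6 h were 79, 4 and 66 within 1 plate, 22, 4 and 29 in sterile water rats alone, and 66, 1 and 50 in F68/PG/PEG400 rats alone, each with fewer hearts. With plate as a block the last 2 counts were 29 and 144, the 24 h count between heart and liver was 19, and those between vehicle and drug hearts were 12 and 1. With plate as a block 88 of the 127 genes at 6 h and 24 of the 75 at 24 h kept their call. The hepatocyte level as a covariate gave 137 at 24 h. Heart and liver taken as independent arrays gave 199 and 47. Vehicle against drug hearts at 6 h gave 10 after renewed quantile normalization and 21 without rat 6M68. The cause of these moves was not tested. With each rat left out, the counts ran from 82 to 188 at 6 h, 43 to 104 at 24 h and 150 to 317 between them, 198 to 405 and 44 to 84 for heart and liver, 0 to 26 and 0 to 6 for vehicle and drug hearts, and stayed at 0 between oral vehicles. No paired analysis was possible because hearts of different times come from different rats and the sources do not say which rats shared a dosing day. Heart and liver were paired within each rat.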
